A study of Mus musculus with 54 samples.

Results

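The oxidative phosphorylation system of mitochondria is built from 5 protein complexes, and the genes described here are those of its subunits that are encoded in the nucleus. They were chosen by symbol alone, with no measured value: Nduf followed by a, b, c, s or v and a number for complex I, Sdha to Sdhd for complex II, Uqcr for complex III, Cox4 to Cox8 for complex IV and Atp5 for complex V, without Cox6b2. The rule took 83 of the 24421 genes in the count table, of which 37 belonged to complex I, 4 to complex II, 8 to complex III, 17 to complex IV and 17 to complex V. The symbols do not follow structure in every case: Ndufa4 is named for complex I but is known as a subunit of complex IV, and Atp5s and Atp5sl are not structural subunits of the ATP synthase.

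Complex I takes electrons from NADH and complex II takes them from succinate, complex III passes them on to cytochrome c, and complex IV hands them to oxygen. Complexes I, III and IV pump protons across the inner membrane, and complex V, the ATP synthase, lets them flow back to make ATP. Resting haematopoietic stem cells (HSC) are known for drawing much of their ATP from glycolysis and for turning to oxidative phosphorylation as they leave quiescence.

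The study measured RNA in HSC sorted from the bone marrow of mice on a C57BL/6 background that carry a ZsGreen reporter in Fgd5, a gene active in HSC, and all groups share this allele. Each mouse received 1 injection under the skin of dmPGE2, a long-acting dimethyl analogue of prostaglandin E2, or of ethanol vehicle in saline, and the irradiated mice were exposed to 8.53 Gy, the dose lethal to 50% of mice, 30 min later. HSC were taken 1 h or 24 h after exposure by a wide SLAM LSK surface gate and by the reporter. The labels give the dose as 35 µg, whereas the stated 3.5 µL of a 0.1 mg/ml solution would hold 0.35 µg.

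The 54 libraries form 6 groups of male and female mice: unirradiated vehicle (15), unirradiated dmPGE2 at 1 h (7), irradiated vehicle at 1 h (8), irradiated dmPGE2 at 1 h (8), irradiated vehicle at 24 h (8) and irradiated dmPGE2 at 24 h (8). The labels place the unirradiated vehicle mice at both times, but their columns name no time, so they were pooled as 1 baseline. They fall in 2 ranges of the sample number in the column names, 8 columns in the range of all 1 h groups and 7 in the range of both 24 h groups, so that number and time cannot be told apart. In 7 cases a column of each range carries the same tag. Their deviations from the mean correlated at r = 0.20 to 0.46 across genes, against -0.22 to 0.16 for columns of different tags. The mean squared difference per gene between columns of one tag was 20.5 to 47.05 times the sampling variance. They were kept as separate libraries, although they may not come from separate mice, which these values do not settle. Sex read from Xist and Y-linked genes matched the labels in every group but this one, where the counts gave 5 female and 10 male libraries and the labels 7 and 8. Mean log2 CPM over the subunit genes was 6.67 ± 0.12 (SD, n = 8) in the lower-numbered columns and 6.89 ± 0.13 (SD, n = 7) in the higher-numbered ones. This gap bears on every comparison with the baseline. Counts of genes called against either range are given for each such comparison, while values of single genes use all 15 columns unless stated.

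Total counts ran from 15049364 to 26217041 reads per library. Libraries 5, 6 and 7 of the irradiated dmPGE2 group at 24 h, all male, stood apart from the other 5 of their group on the second principal component of the 39 libraries outside the baseline, which held 7.41% of the variance, and library 3 stood apart on the fourth. All 10 HSC markers tested, Fgd5, Procr and Mecom among them, were detected at the median library of every group, with a median summed level of 3519 to 5079 CPM. Of 10 erythroid markers, the 4 haemoglobin genes were at a median of 0 in every group, and the summed level of all 10 had medians of 56.1 to 110 CPM. The series gives 7 or 8 mice per group, and p-values measure the spread between these libraries. In RNA from pooled sorted cells, more cells of one kind and more RNA per cell cannot be told apart.

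Promoters of these genes are known for sites of NRF1, of ETS factors such as GABP, and of YY1, and promoter windows are shown here to describe these letters. A window of 250 bases before to 50 bases after the gene start was found in RefSeq (GRCm38.p6) for 68 of the 83 genes, 3 of them by an older symbol. The 3 letter strings searched on both strands were GCATGCGC for NRF1, CCGGAAG for ETS factors and AAGATGGC for YY1. GCATGCGC stood in 14.7% of the subunit windows and 2.71% of all 32851 windows, CCGGAAG in 22.1% and 8.86%, AAGATGGC in 14.7% and 2.75%, and at least 1 of them in 44.1% and 13.3%. The 32851 windows are not limited to genes tested here. The change at 24 h after radiation with vehicle had a median log2 fold change of 0.59 over the 30 tested genes with a match and 0.58 over the 35 without, and the dmPGE2 change at 24 h one of -0.29 and -0.26. The first 4 windows hold both the NRF1 and the ETS string, printed in capitals on either strand. They were chosen after the values were seen, as the gene of each complex with the largest dmPGE2 change at 24 h among those whose window holds both strings, and no complex I window held both. A match is a description of these letters, not of a bound site. In Cox6a1 and Atp5k the NRF1 string and its reverse complement overlap. Cox7a2l, the only gene called higher under dmPGE2 at 24 h, is 1 of the 35 tested genes whose window holds none of the 3 strings. Whether the strings go with the direction of change was not tested. The windows lie at chr4:140961021-140961320 (plus strand) for Sdhb, chr10:80406772-80407071 (minus strand) for Uqcr11, chr5:115348909-115349208 (minus strand) for Cox6a1, chr5:108434350-108434649 (minus strand) for Atp5k and chr17:83514284-83514583 (minus strand) for Cox7a2l.
Sdhb: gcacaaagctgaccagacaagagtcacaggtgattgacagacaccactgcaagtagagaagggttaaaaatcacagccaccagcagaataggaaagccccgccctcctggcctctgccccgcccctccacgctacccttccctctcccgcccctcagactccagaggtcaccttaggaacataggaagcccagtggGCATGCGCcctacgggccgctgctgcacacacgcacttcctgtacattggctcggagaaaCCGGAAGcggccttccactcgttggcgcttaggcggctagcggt
Uqcr11: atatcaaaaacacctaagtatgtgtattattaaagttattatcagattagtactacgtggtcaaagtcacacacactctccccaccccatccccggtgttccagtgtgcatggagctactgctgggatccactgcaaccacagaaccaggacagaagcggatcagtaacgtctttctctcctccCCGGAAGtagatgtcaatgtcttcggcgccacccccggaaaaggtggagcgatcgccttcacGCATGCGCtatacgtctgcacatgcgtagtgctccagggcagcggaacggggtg
Cox6a1: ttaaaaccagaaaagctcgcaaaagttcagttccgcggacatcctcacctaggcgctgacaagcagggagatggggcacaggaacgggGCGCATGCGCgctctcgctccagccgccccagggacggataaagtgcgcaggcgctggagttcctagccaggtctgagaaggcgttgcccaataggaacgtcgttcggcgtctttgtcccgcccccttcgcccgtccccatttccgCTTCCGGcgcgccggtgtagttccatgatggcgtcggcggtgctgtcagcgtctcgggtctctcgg
Atp5k: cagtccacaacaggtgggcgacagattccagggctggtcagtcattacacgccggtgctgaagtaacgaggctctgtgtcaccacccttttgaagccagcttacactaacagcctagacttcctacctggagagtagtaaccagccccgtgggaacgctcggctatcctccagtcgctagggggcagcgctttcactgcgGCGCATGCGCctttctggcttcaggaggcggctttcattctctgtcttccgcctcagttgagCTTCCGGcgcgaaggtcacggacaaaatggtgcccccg
Cox7a2l: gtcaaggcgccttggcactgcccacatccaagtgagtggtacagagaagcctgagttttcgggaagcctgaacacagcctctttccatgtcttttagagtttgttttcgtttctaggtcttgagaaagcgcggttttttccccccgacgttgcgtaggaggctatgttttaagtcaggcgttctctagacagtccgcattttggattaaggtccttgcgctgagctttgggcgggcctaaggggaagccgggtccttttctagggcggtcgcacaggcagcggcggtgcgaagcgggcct

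Levels between genes were compared per length, as RPKM, which divides counts by exon length and by library size, in the 15 unirradiated vehicle libraries. Atp5b, the catalytic beta subunit of the ATP synthase, stood highest at 982 ± 63.99 RPKM (SD, n = 15), followed by Ndufa4 at 551 ± 95.3 RPKM and by Atp5a1, the alpha subunit, at 515.3 ± 34.05 RPKM. Cox4i1, the ubiquitous form of subunit 4 of complex IV, was at 489 ± 60.9 RPKM. Among genes placed in complex I by symbol the levels ran from 31.5 ± 3.66 RPKM for Ndufa11 to that of Ndufa4, apart from the untested genes. In complex II they ran from 113 ± 9.08 for Sdhc to 283 ± 15.98 for Sdha. In complex III they ran from 101.03 ± 13.8 for Uqcrfs1 to 410 ± 75.5 for Uqcr11. The forms of complex IV that are known from other tissues were low: Cox4i2, a lung form, at 5.18 ± 1.1 RPKM, and the heart and muscle forms Cox7a1 and Cox6a2 at 1.25 ± 0.71 and 0.79 ± 0.91 RPKM. The 5 genes that did not pass the filter on low counts were Ndufa4l2, with 0 reads in all 54 libraries, Cox8b and Cox8c, with 4 reads each, Ndufs5 with 10 and Cox7b2 with 21. Ndufs5 encodes a subunit of every complex I, and many subunit genes have near-identical processed copies in the genome; how reads that match several places were counted is not given in the sources used here, so its level, and that of other small subunits, is uncertain. The remaining 78 genes were tested, 35 in complex I, 4 in II, 8 in III, 14 in IV and 17 in V. The subunits encoded in mitochondrial DNA were not analysed here.

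Of the 78 tested genes, 70 had their highest group mean in irradiated vehicle HSC at 24 h, and 64 had their lowest in irradiated vehicle HSC at 1 h. The shares of all genes with these highest and lowest groups are not given here. The lowest group also depends on the pooled baseline. Mean log2 CPM over the subunit genes was 6.65 in irradiated vehicle HSC at 1 h, 6.67 in the lower-numbered baseline columns and 6.89 in the higher-numbered ones. Mean log2 CPM over the 35 tested genes of complex I was 6.73 ± 0.16 (SD, n = 15) in unirradiated vehicle HSC, 6.70 ± 0.14 (n = 7) in unirradiated dmPGE2 HSC, 6.56 ± 0.10 (n = 8) in irradiated vehicle HSC at 1 h, 6.73 ± 0.15 (n = 8) in irradiated dmPGE2 HSC at 1 h, 7.26 ± 0.09 (n = 8) in irradiated vehicle HSC at 24 h and 7.00 ± 0.17 (n = 8) in irradiated dmPGE2 HSC at 24 h. The irradiated vehicle libraries at 24 h, from 7.16 to 7.43, did not overlap with the unirradiated vehicle libraries, from 6.45 to 7.04. Complexes III, IV and V had the same highest group, at 7.96 ± 0.08, 6.31 ± 0.16 and 7.73 ± 0.09, against 7.35 ± 0.17, 5.64 ± 0.23 and 7.22 ± 0.16 in the baseline. Complex II moved over the smallest distance, from 8.15 ± 0.07 to 8.41 ± 0.08.

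**Figure D1:**
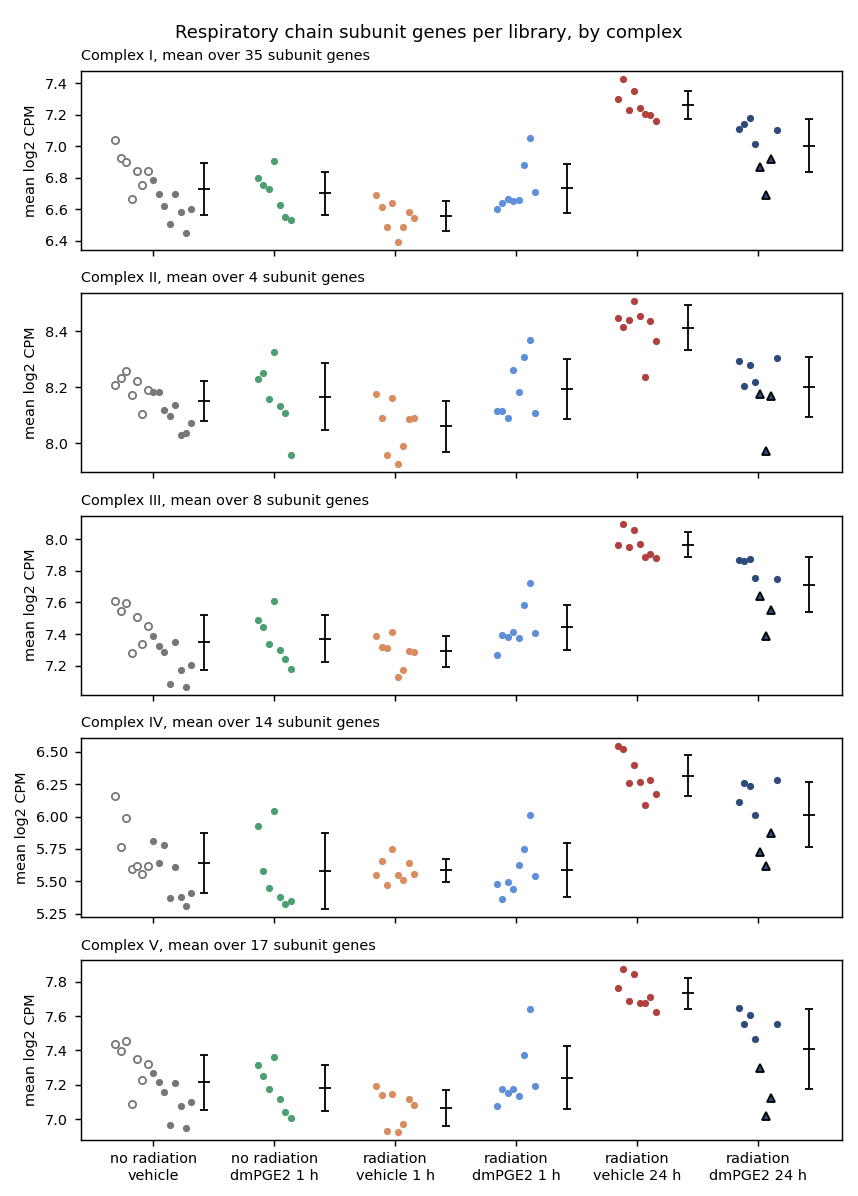
Mean log2 CPM (y axis) over the tested genes of each complex in every library, by group (x axis); bars give the mean and SD over libraries, open circles are the 7 unirradiated vehicle columns of higher number, and triangles are libraries 5, 6 and 7 of irradiated dmPGE2 HSC at 24 h. In each complex the mean of irradiated vehicle HSC at 24 h is the highest of the 6 groups, 7.26 for complex I and 6.31 for complex IV, and the triangles lie below the other libraries of their group.

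Radiation with vehicle, 24 h after exposure, was compared with the unirradiated baseline. Of the 78 tested genes, 71 rose and 1 fell at an edgeR adjusted p below 0.05, where 23.3% of all 14320 genes tested rose and 26.5% fell. The median log2 fold change was 0.58 over the subunit genes and -0.06 over all genes. By complex, 34 of 35 genes rose in complex I, 3 of 4 in II, 8 of 8 in III, 11 of 14 in IV and 15 of 17 in V, with medians of 0.56, 0.31, 0.50, 0.78 and 0.63. For 47 genes every irradiated library lay above every unirradiated one, against 7.37% of all genes, and for none did they lie below, against 3.21%. Against the 7 unirradiated columns of higher number alone, the range that holds the 24 h groups, 67 genes rose (19.4% of all genes) and the median was 0.45. With the 8 columns of lower number 71 rose (21.6% of all genes).

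In complex I, Ndufb6, an accessory subunit of the membrane arm (GRCm38 chromosome 4, 40270663 to 40279368, minus strand), changed most. Its level was 65.2, 78.98 and 114 CPM (lowest, median and highest) in unirradiated vehicle HSC and 149, 163 and 200 CPM in irradiated vehicle HSC at 24 h, so the groups did not overlap. The log2 fold change was 1.05 ± 0.09 (SE, edgeR adjusted p = 2.31e-14). Ndufv2, a core subunit of the NADH-oxidising module, went from 162, 203 and 243 to 307, 334 and 381 CPM, a log2 fold change of 0.74 ± 0.07 (edgeR adjusted p = 1.43e-13). Ndufv1, which holds the flavin that accepts electrons from NADH, rose by 0.33 ± 0.06 on the log2 scale, and Ndufs1, the largest core subunit, by 0.23 ± 0.06. The 7 core subunits, those that carry out the reaction and are encoded in the nucleus, had a median log2 fold change of 0.33 with 6 risen, and the 27 tested accessory subunits, Ndufa4 left out, one of 0.58 with all 27 risen. Ndufs7, a core subunit, was the only complex I gene tested here that did not pass, at 0.17 ± 0.08 (edgeR adjusted p = 0.0601).

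Complex II is the one complex that is also an enzyme of the tricarboxylic acid cycle. Sdhb, its iron-sulphur subunit, had 177, 203 and 244 CPM in unirradiated vehicle HSC and 256, 308 and 328 CPM in irradiated vehicle HSC at 24 h. These did not overlap, and the log2 fold change was 0.52 ± 0.06 (SE, edgeR adjusted p = 3.67e-10). The membrane anchors Sdhc and Sdhd rose by 0.31 ± 0.06 and 0.31 ± 0.06. Sdha, the flavoprotein that binds succinate, did not pass, with 744, 812 and 905 CPM against 656, 771 and 823 CPM, a log2 fold change of -0.09 ± 0.05 (edgeR adjusted p = 0.127).

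In complex III, Uqcrq, a small subunit (GRCm38 chromosome 11, 53428948 to 53430831, minus strand), went from 63.4, 82.3 and 113 to 138, 166 and 202 CPM. The groups did not overlap, and the log2 fold change was 0.99 ± 0.11 (SE, edgeR adjusted p = 1.05e-10). Uqcr10 rose by 0.90 ± 0.11 and Uqcrb by 0.78 ± 0.08, both small subunits as well, while Uqcrc1, a core protein of the matrix side, rose by 0.42 ± 0.05, and Uqcrfs1, the Rieske iron-sulphur protein, by 0.41 ± 0.07. The 5 small subunits had a median of 0.78 and the core proteins one of 0.40.

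In complex IV, the largest change of any called gene was that of Cox4i2, the less abundant form of subunit 4 (GRCm38 chromosome 2, 152754173 to 152765037, plus strand). It had 2.14, 3.89 and 5.001 CPM in unirradiated vehicle HSC and 11.2, 14.0 and 16.7 CPM in irradiated vehicle HSC at 24 h. The groups stood far apart, and the log2 fold change was 1.88 ± 0.17 (SE, edgeR adjusted p = 5.68e-14). Cox4i1, its abundant counterpart, went from 297, 367 and 462 to 555, 624.7 and 708 CPM, a log2 fold change of 0.74 ± 0.07 (edgeR adjusted p = 2.68e-12), so the low form rose by more than the abundant one on this scale; the difference between these changes was not tested. Cox7c rose by 0.94 ± 0.10, Cox5a, a subunit that faces the matrix, by 0.86 ± 0.10, Cox7b by 0.85 ± 0.11, Cox6a1 by 0.78 ± 0.09, Cox7a2 by 0.78 ± 0.09 and Cox8a by 0.56 ± 0.09. Of the tissue forms, Cox7a1 was at 1.12 ± 0.49 (edgeR adjusted p = 0.0507) and Cox6a2 at -2.01 ± 1.16 (edgeR adjusted p = 0.147), with few reads behind either. Cox7a2l, known for joining complex III to complex IV in supercomplexes rather than for being part of the enzyme, was at 0.03 ± 0.08 (edgeR adjusted p = 0.751).

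In the ATP synthase, Atp5l and Atp5k, subunits g and e of the membrane part known for holding enzyme dimers together, rose by 0.84 ± 0.12 and 0.83 ± 0.12 on the log2 scale. Atp5k had 25.3, 37.3 and 48.5 CPM in unirradiated vehicle HSC and 55.02, 62.1 and 74.2 CPM in irradiated vehicle HSC at 24 h, without overlap (edgeR adjusted p = 5.44e-08). The 3 genes of the c-ring, the rotor that protons turn, encode the same mature protein and rose by 0.68 ± 0.11 (Atp5g1), 0.63 ± 0.12 (Atp5g2) and 0.70 ± 0.08 (Atp5g3). Of the catalytic head and central stalk, Atp5b went from 1647, 1839 and 2035 to 2239, 2491 and 2704 CPM. Its log2 fold change was 0.41 ± 0.06 (edgeR adjusted p = 1.92e-08), while Atp5d rose by 0.46 ± 0.08 and Atp5a1 by 0.21 ± 0.05. The membrane subunits Atp5j2, Atp5k and Atp5l had a median of 0.83, the c-ring 0.68, the peripheral stalk 0.59 and the head with its central stalk 0.46. Atp5sl, the only gene called lower, fell by 0.24 on the log2 scale (SE 0.07, edgeR adjusted p = 0.00213), and Atp5s, also no structural subunit, was at -0.07.

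**Figure D2:**
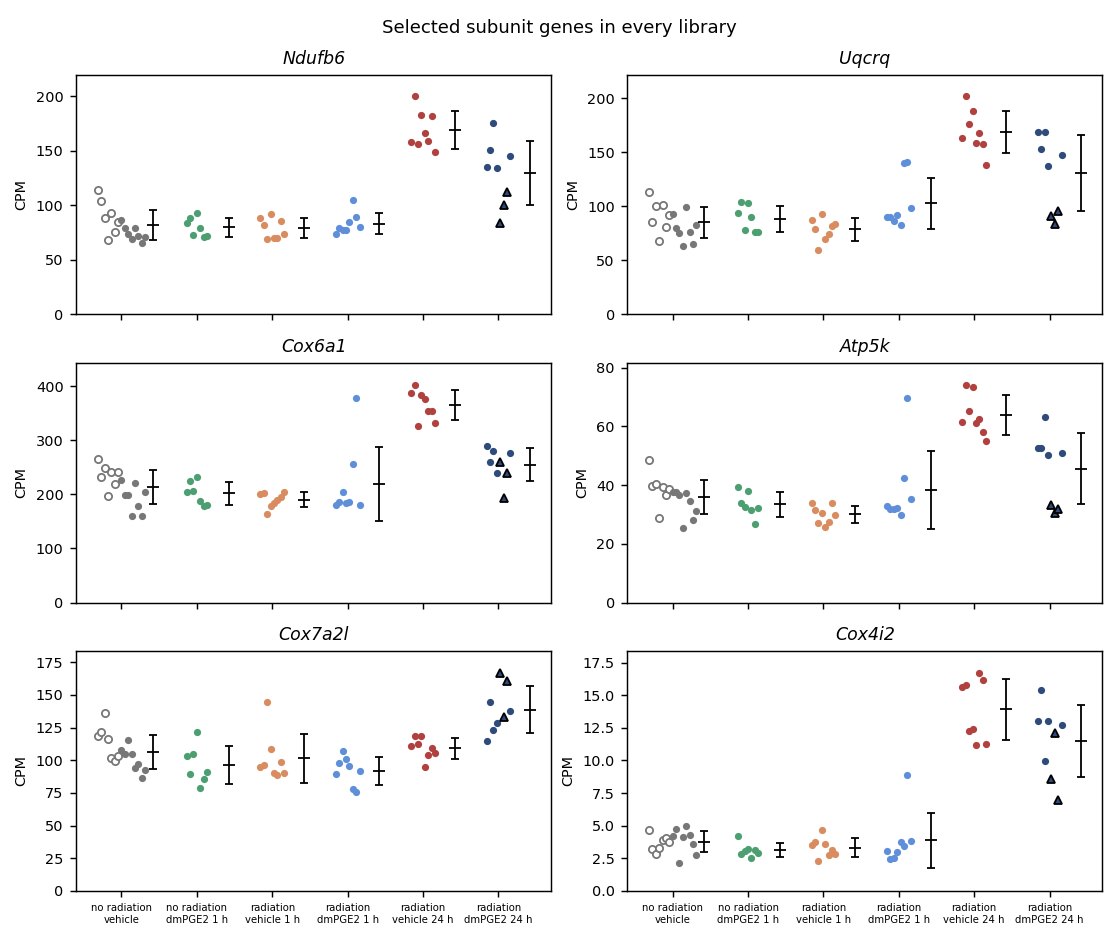
CPM (y axis, from 0) of 6 subunit genes in every library, by group (x axis), with the mean and SD beside the points; open circles are the 7 unirradiated vehicle columns of higher number and triangles are libraries 5, 6 and 7 of irradiated dmPGE2 HSC at 24 h. Ndufb6, Uqcrq, Cox6a1, Atp5k and Cox4i2 are highest in irradiated vehicle HSC at 24 h, while Cox7a2l is highest in irradiated dmPGE2 HSC at 24 h.

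Against the irradiated vehicle libraries of 1 h, the rise by 24 h covered 71 of the 78 genes and 1 fell, with 23.4% of all genes higher and 27.5% lower, and the median log2 fold change was 0.76. For 66 genes the times did not overlap, against 11% of all genes, with none lower without overlap, against 8.52%. This comparison shares its 24 h libraries with the one before and sets columns of the lower number range against the higher one, which cannot be told apart from time. Cox4i2 had 2.28, 3.32 and 4.65 CPM at 1 h, a log2 fold change of 2.07 ± 0.20 (SE, edgeR adjusted p = 2.99e-12), and Uqcrfs1, already at 145, 166 and 195 CPM at 1 h, did not pass, at 0.09.

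Treated irradiated HSC were next set against untreated ones. At 24 h, dmPGE2 before radiation went with lower levels: of the 78 genes, 52 fell and 1, Cox7a2l, rose, with 11.5% of all genes lower and 12.4% higher. The median log2 fold change was -0.27 over the subunit genes and 0.03 over all genes, and 72 of 78 lay below 0. By complex, 20 of 35 genes fell in complex I, 3 of 4 in II, 5 of 8 in III, 10 of 14 in IV and 14 of 17 in V, with medians of -0.25, -0.21, -0.28, -0.45 and -0.32. For 7 genes all 8 dmPGE2 libraries lay below all 8 vehicle libraries, against 1.28% of all genes. Ndufa4, Ndufc2, Cox6a1 and Cox7a2 were among them.

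Most of these calls did not pass when libraries 5, 6 and 7 were left out. No fit left out as many other libraries of the group, so the part of these libraries and that of fewer libraries cannot be told apart. Without them 5 genes fell and none rose (3.78% and 3.94% of all genes), the median was -0.17, and 70 of 78 genes lay below 0. All 5 were among the 52, and Ndufa9, Ndufc2 and Cox6a1 were 3 of them. Leaving out library 3 as well left 3 lower, Ndufa9, Ndufc2 and Cox6a1, with a median of -0.17, where 2.46% of all genes were lower, a share close to 3 of 78. A fit on the compared groups alone called 33 lower (5.96% of all genes).

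**Figure D3:**
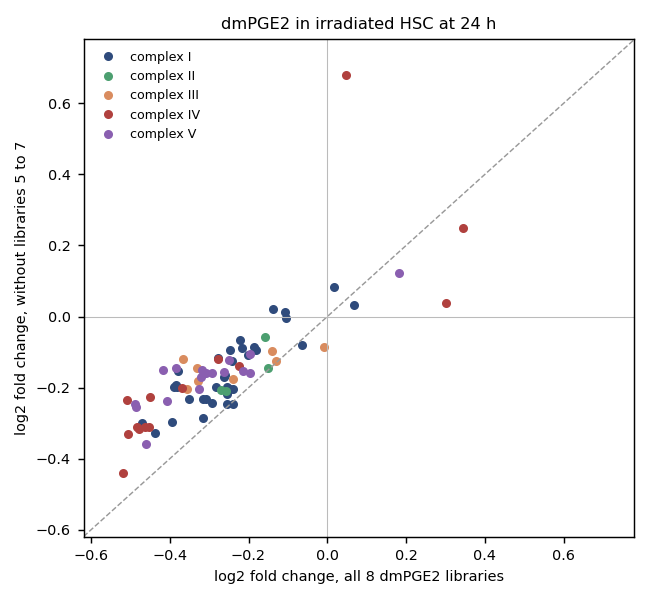
Log2 fold change of each subunit gene under dmPGE2 in irradiated HSC at 24 h with all 8 dmPGE2 libraries (x axis) and without libraries 5, 6 and 7 (y axis), coloured by complex; the dashed line marks equal values. Most points lie below 0 on both axes and above the line, so the fall is smaller without the 3 libraries, with medians of -0.27 and -0.17.

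Cox6a1, the ubiquitous form of subunit 6a of complex IV (GRCm38 chromosome 5, 115345654 to 115348955, minus strand), changed most. It had 327, 365 and 403 CPM in irradiated vehicle HSC and 194, 259 and 290 CPM in irradiated dmPGE2 HSC at 24 h, without overlap. The log2 fold change was -0.52 ± 0.11 (SE, edgeR adjusted p = 0.000324), and -0.44 without libraries 5, 6 and 7 (edgeR adjusted p = 0.0169). Other complex IV genes were close: Cox7b fell by 0.51, Cox7a2 by 0.48, Cox7c by 0.48, Cox5a by 0.45, Cox8a by 0.37 and Cox4i1 by 0.22 on the log2 scale. Cox4i2 went from 11.2, 14.0 and 16.7 to 6.99, 12.4 and 15.4 CPM and did not pass, at -0.28 ± 0.20 (edgeR adjusted p = 0.32).

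Among genes placed in complex I by symbol, Ndufa4 had 385, 416 and 505 CPM with vehicle and 215, 315 and 382 CPM with dmPGE2. Its log2 fold change was -0.47 ± 0.10 (SE, edgeR adjusted p = 0.000641). Ndufc2, an accessory membrane subunit, had 139, 159 and 174 CPM with vehicle and 93.9, 118 and 138 CPM with dmPGE2, a log2 fold change of -0.44 ± 0.09 (edgeR adjusted p = 0.000463), and -0.33 without libraries 5, 6 and 7. These were the 2 largest changes among the genes placed in complex I by symbol, and neither gene's groups overlapped. Ndufa4 is known as a subunit of complex IV. The core subunits Ndufv2 and Ndufs1 fell by 0.35 and 0.25, while Ndufv1 was at -0.06 ± 0.07 (edgeR adjusted p = 0.569). In complex II, Sdhb fell by 0.27, Sdhc by 0.26 and Sdha by 0.15 on the log2 scale.

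For Uqcrq of complex III and Atp5k of the ATP synthase, the lower values sat in the 3 libraries that stood apart. Uqcrq had 138 to 202 CPM in the vehicle libraries, 138 to 169 CPM in the other 5 dmPGE2 libraries and 83.7 to 95.9 CPM in libraries 5, 6 and 7. Atp5k had 55.02 to 74.2 CPM with vehicle, 50.1 to 63.2 CPM in the other 5 and 30.3 to 33.1 CPM in libraries 5, 6 and 7. With all libraries Uqcrq fell by 0.37 (SE 0.13, edgeR adjusted p = 0.0318) and Atp5k by 0.49 (SE 0.14, edgeR adjusted p = 0.00696), and without the 3 the log2 fold changes were -0.12 (edgeR adjusted p = 0.635) and -0.25 (edgeR adjusted p = 0.301). Of the other members of these complexes, Uqcrb fell by 0.36, Uqcrc1 by 0.24, Atp5j2 by 0.49, Atp5g1 by 0.42, Atp5b by 0.26 and Atp5a1 by 0.20 with all libraries, and Uqcrfs1 was at -0.01.

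Cox7a2l went the other way (GRCm38 chromosome 17, 83501917 to 83514333, minus strand). It had 94.9, 110 and 119 CPM in irradiated vehicle HSC and 115, 135 and 167 CPM in irradiated dmPGE2 HSC at 24 h, with an overlap at the edge. The log2 fold change was 0.35 ± 0.09 (SE, edgeR adjusted p = 0.00438). Without libraries 5, 6 and 7 it was 0.25 (edgeR adjusted p = 0.12).

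Compared with the baseline, irradiated dmPGE2 HSC at 24 h still had 53 genes higher and 2 lower, where 19% of all genes were higher and 17.3% lower, and the median log2 fold change was 0.26. This comparison shares libraries with both of those just given. Without libraries 5, 6 and 7 it had 64 genes higher (18.7% of all genes), 1 lower (19.5%) and a median of 0.39. Against the 7 baseline columns of higher number alone it had 24 higher (12.6% of all genes), 2 lower (9.23%) and a median of 0.15. With the 8 columns of lower number it had 67 higher (17.8% of all genes) and 2 lower (17.3%). Cox4i2 was the only gene above the baseline without overlap (2.28% of all genes), at 1.60 ± 0.17 on the log2 scale. Sdha was the only one below it without overlap (0.922% of all genes), with 626, 702 and 737 CPM against 744, 812 and 905 CPM, a log2 fold change of -0.24 ± 0.05 (SE, edgeR adjusted p = 6.62e-05). Atp5s was the other gene called lower, at -0.36 ± 0.11.

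One hour after radiation the dmPGE2 difference had the other sign, and it was small. Of the 78 genes, 10 rose and none fell, with 7.04% of all genes higher and 7.77% lower. DESeq2 also called none lower (8.14% of all genes). At an unadjusted p below 0.05 none was lower either, while 33 were higher. Of all 14320 genes tested, 1916 were higher and 1836 lower at that level. The median log2 fold change was 0.17 against 0.01 over all genes, and no gene separated the groups without overlap (1.68% of all genes were higher without overlap). The genes that rose were Ndufb7, Ndufs6, Ndufs8, Ndufv3, Ndufb10 and Ndufb9 of complex I, Sdhb, Uqcrq, Atp5d and Atp5l. Sdhb had 171, 196 and 231 CPM with vehicle and 208, 231 and 290 CPM with dmPGE2, a log2 fold change of 0.28 ± 0.07 (SE, edgeR adjusted p = 0.00346). Atp5l changed most, from 16.3, 18.2 and 20.6 to 18.3, 23.4 and 59.6 CPM, a log2 fold change of 0.55 ± 0.15 (edgeR adjusted p = 0.00523).

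Library 7 of the irradiated dmPGE2 group at 1 h weighed on these calls. Its mean log2 CPM over the subunit genes was 7.13, against 6.65 to 6.93 in the other 7 libraries of its group, and without it 3 genes rose, with a median of 0.12. Without library 6 of this group 6 genes rose, and without library 3 of the irradiated vehicle group at 1 h 5 rose. The shares of all genes that rose in these fits are not given here. With all libraries the share was 7.04%. Sdhb and Atp5d passed without library 7, at 0.25 (edgeR adjusted p = 0.0149) and 0.26 (edgeR adjusted p = 0.027), and Ndufs1 passed then at 0.23 (edgeR adjusted p = 0.0158), while Atp5l was at 0.29 (edgeR adjusted p = 0.0742).

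The responses to dmPGE2 at the 2 times were compared directly, as the 24 h difference minus the 1 h difference. This gave 62 genes lower and 2 higher, where 12.6% of all genes were lower and 12.9% higher, with a median of -0.46 against 0.05 over all genes. Atp5k differed most among the called genes, at -0.84 ± 0.20 on the log2 scale (SE, edgeR adjusted p = 0.00103), and Cox7a2l and Atp5sl were the 2 that were higher, at 0.48 ± 0.13 and 0.32 ± 0.11. Without libraries 5, 6 and 7 at 24 h, 35 genes were lower and 1, Cox7a2l, higher, with a median of -0.36, where 8.64% of all genes were lower and 7.88% higher.

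**Figure D4:**
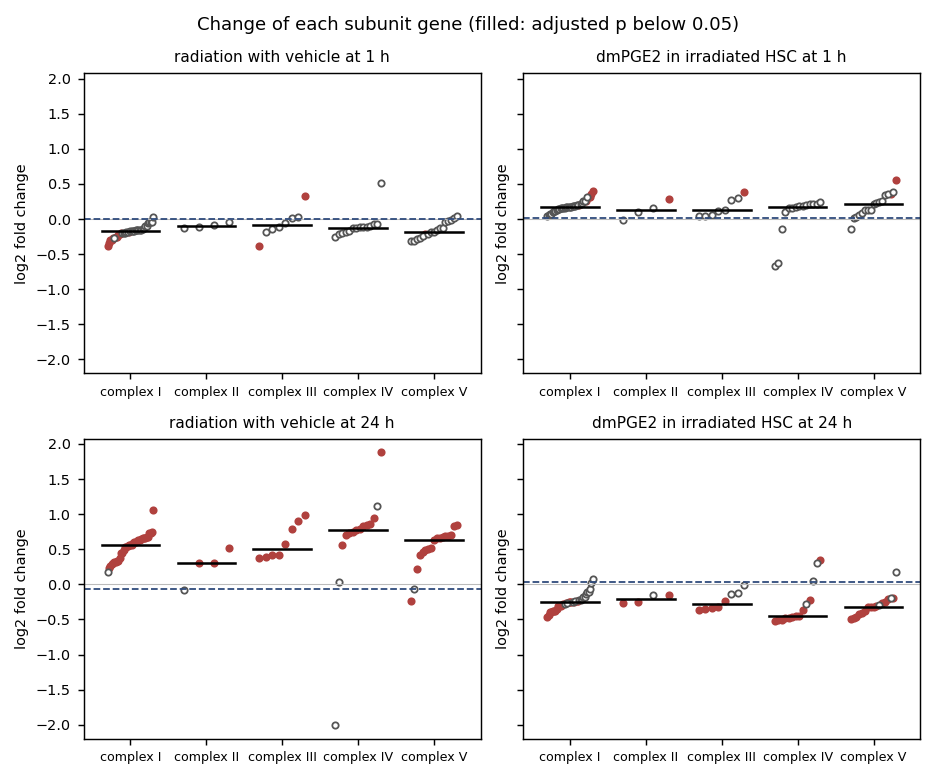
Log2 fold change (y axis) of each tested subunit gene, by complex (x axis), for radiation with vehicle and for dmPGE2 in irradiated HSC, at 1 h and at 24 h; filled points passed an edgeR adjusted p below 0.05, black bars are the medians of the complexes and the dashed line is the median of all genes tested. The 71 genes that rose after radiation at 24 h and the 52 that fell under dmPGE2 at 24 h spread over all 5 complexes.

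Radiation with vehicle at 1 h gave a result that turned on the baseline columns. Against all 15, 13 genes fell and 1 rose, with 7.31% of all genes lower and 8.65% higher, a median log2 fold change of -0.16 and no gene without overlap (1.17% of all genes were lower without overlap). Of the 13, 11 were complex I genes, led by Ndufs6 at -0.38 ± 0.10 (SE, edgeR adjusted p = 0.00521) and Ndufa3 at -0.34 ± 0.11, with Uqcr11 at -0.38 ± 0.11 and Atp5j at -0.21 ± 0.07 from complexes III and V. Against the 8 baseline columns of lower number, the range that holds the 1 h groups, none fell (3.48% of all genes did) and the median was -0.05, and against the 7 of higher number 39 fell (8.86% of all genes) and the median was -0.28. With columns of one tag summed 6 fell, where 5.02% of all genes did. Without library 5 of irradiated vehicle HSC at 1 h 5 fell, and without library 3 or 6 of that group 8 fell in each case. The shares of all genes that fell in these leave-one-out fits are not given here.

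Uqcrfs1 was the gene that rose at 1 h. It had 110, 130 and 180 CPM in unirradiated vehicle HSC and 145, 166 and 195 CPM in irradiated vehicle HSC at 1 h, with overlap, and a log2 fold change of 0.33 ± 0.07 (SE, edgeR adjusted p = 0.000827). It passed against either set of baseline columns, at 0.40 for the lower and 0.24 for the higher numbers. Its level was also above the baseline in unirradiated dmPGE2 HSC, with 135, 152 and 190 CPM and a log2 fold change of 0.24 ± 0.08 (edgeR adjusted p = 0.0331).

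In unirradiated HSC at 1 h, dmPGE2 raised 2 of the 78 genes and lowered none, where 5.28% of all genes rose and 5.82% fell, and the median log2 fold change was -0.03. Ndufs1, with 105, 139 and 168 CPM without and 145, 168 and 175 CPM with dmPGE2, was at 0.22 ± 0.07 (SE, edgeR adjusted p = 0.0221), and the other was Uqcrfs1. Against the 8 lower-numbered columns 1 gene rose and none fell, where 3.46% of all genes rose and 4.1% fell. Against the 7 higher-numbered ones 1 rose and 7 fell, where 6.41% of all genes rose and 5.88% fell. With tags summed none passed, where 3.42% of all genes rose and 4.52% fell. At an unadjusted p below 0.05, 2 genes were higher and 1 lower with all columns, where 1512 and 1634 of all 14320 genes tested were. Irradiated and unirradiated HSC that had both received dmPGE2 differed at 1 h in 0 of 78 genes in either direction by edgeR and by DESeq2, with 0.356% of all genes higher and 0.0209% lower. None of the 78 was past an unadjusted p of 0.05 either, where 428 of all 14320 genes tested were higher and 272 lower. The highest log2 fold change was that of Cox4i2, at 0.31, the lowest that of Cox6a2, which had few reads, at -1.60, and the median was 0.05. These groups have 8 and 7 libraries, and this does not show that the levels were the same.

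Other genes of the pathway were read from lists made for this purpose. The 6 subunits, carriers and inhibitors that the symbol rule leaves out, among them cytochrome c (Cycs), Ndufab1 and the ATP synthase inhibitor Atpif1, all rose after radiation at 24 h, with a median of 0.87, and all fell under dmPGE2 at 24 h, with a median of -0.45. Of the assembly factors, the following rose after radiation at 24 h: 10 of 13 for complex I, 2 of 4 for II, 3 of 6 for III, 14 of 21 for IV and 3 of 3 for V, with none fallen and medians from 0.20 to 0.41. Under dmPGE2 at 24 h 6, 1, 1, 3 and 1 of them fell, and 1 of complex II rose. Of all genes, 23.3% rose and 26.5% fell after radiation at 24 h. Under dmPGE2 at 24 h 11.5% fell and 12.4% rose. The 3 of 21 for complex IV lay near that share, and the counts for II, III and V rest on 4, 6 and 3 genes. The copper chaperone Cox17 rose by 0.80 ± 0.08 after radiation and fell by 0.44 under dmPGE2 at 24 h, and Sdhaf1, which helps to insert the iron-sulphur clusters of Sdhb, rose after radiation both at 1 h, by 1.25 ± 0.09, and at 24 h, by 0.95 ± 0.09. Under dmPGE2 in irradiated HSC Sdhaf1 was the assembly factor that rose at 24 h, by 0.31 ± 0.10, and at 1 h it fell by 0.56 on the log2 scale (SE 0.10).

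Of 13 enzymes of the tricarboxylic acid cycle, 10 rose after radiation at 24 h (median 0.29) and 6 fell under dmPGE2 at 24 h (median -0.16), and of 21 genes of protein import, outer membrane and chaperones 16 rose and 1 fell, and 10 fell. Of 19 regulators of mitochondrial gene expression and biogenesis, 5 rose and 7 fell after radiation at 24 h, with a median of -0.11. These counts were near the 23.3% and 26.5% of all genes. Under dmPGE2 at 24 h 1 regulator rose and 1 fell, where 12.4% of all genes rose and 11.5% fell. Ppargc1b, a coactivator of mitochondrial genes, fell by 1.07 on the log2 scale (SE 0.22) and Polg, the polymerase of mitochondrial DNA, by 0.91 (SE 0.09) after radiation, and Polg rose by 0.60 ± 0.10 under dmPGE2 at 24 h.

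Several other measures moved with these changes. For the counts below, 23.3% of all genes rose and 26.5% fell after radiation at 24 h. Under dmPGE2 at 24 h 12.4% rose and 11.5% fell. Of 30 genes of the G2/M phase, 28 rose after radiation at 24 h (median 1.29) and 27 fell under dmPGE2 at 24 h (median -0.89), and of 30 genes of G1/S and replication 15 rose (median 0.25) and 28 fell (median -0.72). Mean log2 CPM of the G1/S genes was 5.67 to 5.92 in libraries 5, 6 and 7 of irradiated dmPGE2 HSC at 24 h, against 6.6 to 7.18 in the other 5 libraries. Of the 10 HSC markers, 7 fell and 1 rose after radiation at 24 h, and 4 rose under dmPGE2. Summed levels of 8 megakaryocyte genes ran from 958 to 2030 CPM in irradiated vehicle HSC at 24 h, from 356 to 1097 CPM with dmPGE2 and from 481 to 833 CPM in the baseline, and those of 12 neutrophil genes from 89.9 to 619, 283 to 897 and 261 to 1762 CPM. Of the 6 erythroid markers tested, 4 fell and 1 rose after radiation at 24 h, and 2 rose and 1 fell under dmPGE2 at 24 h. Stromal markers reached 413.01 CPM in the irradiated dmPGE2 group at 24 h, with a median of 74.8 CPM. Whether the subunit genes changed within a cell type or a cell cycle phase was not tested.

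Subunit genes are short, with a median exon length of 725.5 bases (292 to 2927) against 2827 bases over all genes tested, and the changes went with length. After radiation with vehicle at 24 h, the median log2 fold change of other genes fell from 0.33 for exon lengths of up to 500 bases to -0.30 above 4000 bases. Subunit genes had medians of 0.68 (14 genes), 0.63 (37), 0.41 (22) and 0.21 (5) for lengths of up to 500, 500 to 1000, 1000 to 2000 and 2000 to 4000 bases, above those of other genes of the same length at 0.33, 0.29, 0.12 and -0.06. Under dmPGE2 at 24 h the medians were -0.35, -0.32, -0.26 and -0.20, where other genes had -0.00, -0.08, -0.03 and 0.02. At 1 h the subunit genes lay close to other short genes: for 500 to 1000 bases, -0.17 and -0.17 after radiation with vehicle, and 0.18 and 0.15 for dmPGE2 in irradiated HSC. Over the 78 subunit genes, which share libraries and scaling, Spearman's rho between exon length and the change after radiation at 24 h was -0.55. The part of length, or of what goes with it, in these changes was not tested.

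**Figure D5:**
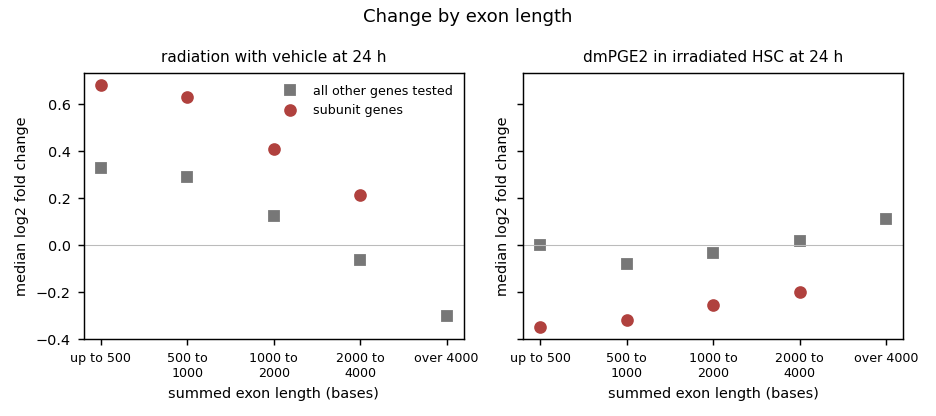
Median log2 fold change (y axis) of the subunit genes (circles) and of all other genes tested (squares) by summed exon length (x axis), for radiation with vehicle at 24 h and for dmPGE2 in irradiated HSC at 24 h; no subunit gene is longer than 4000 bases. Circles lie above squares of the same length in the first panel, 0.63 against 0.29 for 500 to 1000 bases, and below them in the second, -0.32 against -0.08.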

How the data were processed

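Libraries were prepared by SMART-Seq v4 followed by Nextera XT, per the labels' protocols, a chemistry without strand information or molecular identifiers. Per the submitters' processing notes, the tools were STAR 2.5.2b and featureCounts (Subread 1.5.1) and the genome was mm10. The authors deposited whole-number read counts per gene with no scaling, and each gene's exon length in bases, per the file headers; the sources used here do not give the annotation, the strand setting or the treatment of reads that match several places.

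Columns were given to groups by their names, 54 of 54. Genes were filtered with filterByExpr (minimum count 10), which left 14320, scaled by TMM and tested with edgeR 4.0.16 (R 4.3.3, limma 3.58.1), robust quasi-likelihood, with 1 mean per group over all 54 libraries (48 residual degrees of freedom, common dispersion 0.121) and Benjamini-Hochberg adjustment over all genes tested at 0.05. SEs were derived from the F statistic as |log2 fold change| over its square root. CPM use TMM-scaled totals; log2 CPM add a prior count of 3. Named with values were, per complex and main comparison, the 2 called genes with the largest change and a mean log2 CPM of at least 2, fixed core subunits and isoform sets; others are named as the edge of a range, as part of a short list of calls, or because they were seen to stand out.

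On data simulated for the dmPGE2 comparison at 24 h (14140 genes, 50 changed per size), 6%, 56%, 94% and 98% of changes of 0.25, 0.5, 1 and 2 on the log2 scale were recovered. The changed genes were drawn from all genes above a low mean count, not from the subunit genes, so these rates need not hold for the latter. Alternatives were DESeq2 1.42.0, RLE scaling, no filter, only the groups compared, the tag as a replicate block, and fits without libraries that stood apart; parts of the baseline, its tags summed and each irradiated library left out in turn were chosen after seeing the data. The members and lists were chosen with earlier results of these data known. Not every gene called is reported by name here.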

Additional observations from a re-analysis of the deposited data

Results flagged for a closer look

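Single libraries far from the rest of their group were looked for among the named genes and the means of the complexes. Of 225 such tests 26 found one, where chance gives about 1 in 20 for independent tests. These tests share libraries and genes that move together, so their count cannot be judged against that rate. In 14 of the 26 it was library 7 of irradiated dmPGE2 HSC at 1 h that stood highest. Its CPM were 426 for Atp5d, 79.4 for Atp5g2, 183 for Atp5j2, 69.8 for Atp5k, 59.6 for Atp5l, 547 for Cox4i1, 8.86 for Cox4i2, 378 for Cox6a1, 1.33 for Cox7a1, 199 for Ndufa3, 177 for Ndufb7, 174 for Sdhc, 199 for Uqcr10 and 278 for Uqcr11. In irradiated vehicle HSC at 1 h, library 3 was highest for Cox7a2l at 144 CPM and lowest for Ndufs6 at 48.2 and Sdha at 633 CPM. In irradiated vehicle HSC at 24 h, library 4 was highest for Atp5a1 at 1643 CPM, library 1 for Cox6a2 at 0.90 and library 2 for Cox7a2 at 217, and library 6 was lowest for Sdhb at 256 CPM. In irradiated dmPGE2 HSC at 24 h, library 6 was lowest for Sdhb at 198 CPM and for the mean of complex II at 7.97 log2 CPM, library 7 was highest for Cox7a1 at 3.61 CPM and library 5 for Uqcrfs1 at 245 CPM. Library 4 of unirradiated dmPGE2 HSC was highest for Cox6a2 at 4.45 CPM.

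The dmPGE2 response in irradiated HSC differed between 24 h and 1 h, by the edgeR test of that difference, for 34 of the 42 named genes. Of all genes tested, 12.6% were lower and 12.9% higher in that test. Some of the 42 were named for a large dmPGE2 change at 1 h or 24 h, which favours a high count here. The 42 also include Cox8b and Ndufa4l2, which were not tested. The differences below are log2 values, 24 h minus 1 h. In complex I they were Ndufa3 -0.57, Ndufa4 -0.59, Ndufb6 -0.46, Ndufb7 -0.78, Ndufc2 -0.48, Ndufs1 -0.41, Ndufs6 -0.63 and Ndufv2 -0.53. In complex II they were Sdhb -0.55, Sdhc -0.36 and Sdhd -0.32, and in complex III Uqcr10 -0.60, Uqcr11 -0.64, Uqcrb -0.39, Uqcrc1 -0.37 and Uqcrq -0.75. In complex IV they were Cox4i1 -0.32, Cox5a -0.63, Cox6a1 -0.73, Cox7a2 -0.71, Cox7b -0.68, Cox7c -0.63 and Cox8a -0.57, with Cox7a2l at 0.48. In complex V they were Atp5a1 -0.25, Atp5b -0.30, Atp5d -0.61, Atp5g1 -0.64, Atp5g2 -0.80, Atp5g3 -0.45, Atp5j -0.45, Atp5j2 -0.74, Atp5k -0.84 and Atp5l -0.75.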

How the results depend on the processing

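Without each irradiated library in turn, the number of genes ranged from 3 to 12 higher for dmPGE2 at 1 h, from 40 to 53 lower and 1 to 2 higher for dmPGE2 at 24 h, from 5 to 14 lower for radiation with vehicle at 1 h, from 71 to 72 higher and 1 to 2 lower for radiation at 24 h, from 38 to 65 higher for irradiated dmPGE2 at 24 h against the baseline, from 0 to 2 lower for 24 h against 1 h, and from 58 to 62 lower and 1 to 2 higher for the difference between the dmPGE2 responses. The shares of all genes in these leave-one-out fits are not given here. With only the groups compared, dmPGE2 at 1 h had 6 higher (7.61% of all genes) and dmPGE2 at 24 h 33 lower (5.96% of all genes). In that setting 24 h against 1 h had 0 lower (25.8%) and the difference between responses 1 higher (10.9%). Without libraries 5, 6 and 7 of irradiated dmPGE2 at 24 h, and without library 3 too, dmPGE2 at 24 h had 5 and 3 lower and 0 higher in both fits, the group had 1 and 1 below the baseline, and the difference between responses had 35 and 39 lower and 1 and 1 higher. With the lower-numbered, the higher-numbered and the tag-summed baseline, radiation at 1 h had 0, 39 and 6 lower, dmPGE2 without radiation 1, 1 and 0 higher, with 7 lower against the higher-numbered columns, and irradiated dmPGE2 at 24 h had 24 higher against the higher-numbered columns. DESeq2 called 2 higher for dmPGE2 at 24 h (13.9% of all genes). The cause of these shifts, the smaller number of libraries included, was not tested. With the tag as a replicate block, 2 genes were higher for dmPGE2 at 24 h (15.3% of all genes). Libraries of one tag correlated across genes at r = 0.08 to 0.35 for dmPGE2 at 1 h, -0.00 to 0.08 at 24 h, 0.08 to 0.27 for radiation under dmPGE2 and 0.00 to 0.42 for dmPGE2 without radiation, and 6 of 8, 3 of 8, 6 of 8 and 6 of 7 correlated best with their own tag. At 1 h this hints at a pairing, from the data and not the design, but not every pair passed 0.1, so the block stayed an alternative. For dmPGE2 without radiation the calls went from 2 higher and 0 lower to 1 higher and 7 lower against the higher-numbered columns. In that fit 6.41% of all genes were higher and 5.88% lower. For single named genes, leave-one-out fits aside, 1175 values kept their direction and side of the threshold, 140 no longer passed and 7 changed sign without having passed. Few reads limit Cox6a2, Cox7a1 and the untested genes.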
